A study of Mus musculus with 6 samples.

Results

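Choroid plexus epithelial genes were followed on hippocampal arrays of IκBα-deficient mice and littermate controls. The set holds 10 genes: Kcne2, Kcnj13, Clic6, Slc4a5, Aqp1, Cldn2, Folr1, Otx2, Calml4 and Steap1. They were chosen by symbol, as known epithelial genes of the choroid plexus, at a time when their values on these arrays were already known. Every probe set annotated to 1 of these symbols alone was taken, which gave 13 probe sets of the 45037 tested, and 10 of 18193 genes. Because the contrast between genotypes was known at that choice, the differences between groups below are a description and support nothing by themselves.

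Hippocampi came from 6 mice aged 2 to 3 months, and total RNA of each animal was hybridised to 1 Affymetrix expression array. The 3 IκBα-deficient animals were IκBαfl/-;Nestin-Cre, that is, 1 floxed and 1 null allele of the IκBα gene with a Cre recombinase under the Nestin promoter. The 3 controls were littermates of genotype IκBαfl/- without Cre. All 6 animals therefore carried a null allele, and Cre was present only in the deficient group. Nestin-Cre acts in neural progenitors and their descendants, so the deletion is not limited to 1 cell type of the hippocampus. Values are RMA values on the log2 scale, where 1 unit is a doubling, and arrays are called control 1 to 3 and deficient 1 to 3 after the repeat numbers of the labels. The number of arrays, not a read depth, limits the precision.

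The choroid plexus is a sheet of epithelium on a vascular core that hangs into the brain ventricles and makes cerebrospinal fluid. Its cells move sodium, chloride, bicarbonate and water from blood to ventricle with channels and transporters placed on opposite faces of the cell, and tight junctions close the gaps between cells. The plexus of the lateral ventricle lies along the fimbria of the hippocampus, so fragments can stay on the tissue at dissection. Otx2 is the homeodomain transcription factor on which the development and upkeep of this epithelium depend.

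Promoter sequences are shown because the 10 genes moved together between arrays and 1 of them encodes a transcription factor with a known recognition motif. RefSeq windows of 300 bases, from 250 before to 50 after a transcript start (GRCm38.p6), were given for 8 of the 10 genes in 12 windows. On both strands, the bicoid-type motif TAATCC, the type that Otx2 binds, was found in 1 of the 12 windows and in 7.06% of all 32851 windows. The homeobox core TAATTA, which reads the same on both strands, was in 2 of 12 and in 5.29% of all. The forkhead motif GTAAACA was in 0 of 12 against 3.65%, and the kappa B motif, the site of NF-κB, in 0 of 12 against 8.46%. All matches among the 12 lay in windows of Otx2 itself, and the matches did not overlap. The stretch of Otx2 with most matches is printed with the motifs in capitals (GGATTA is TAATCC on the other strand), followed by the 100 bases before the start of 3 members of different roles that hold none of these letters.
Otx2 (chr14:48665248-48665353, minus strand, bases 244 to 139 before the start): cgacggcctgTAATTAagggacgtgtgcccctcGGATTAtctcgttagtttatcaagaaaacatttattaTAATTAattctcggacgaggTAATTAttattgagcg
Kcne2 (chr16:92292289-92292388, plus strand): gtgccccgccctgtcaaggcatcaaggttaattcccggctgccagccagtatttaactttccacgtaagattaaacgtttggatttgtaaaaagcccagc
Kcnj13 (chr1:87394730-87394829, minus strand): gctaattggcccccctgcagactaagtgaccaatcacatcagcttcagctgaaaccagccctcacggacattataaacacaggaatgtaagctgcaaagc
Aqp1 (chr6:55336199-55336298, plus strand): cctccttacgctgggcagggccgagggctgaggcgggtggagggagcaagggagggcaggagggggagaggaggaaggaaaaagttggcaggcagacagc
Base composition was not shared. The window of Steap1 had 72.3% G and C with 33 CpG dinucleotides, while that of Kcnj13 had 46.0% with 5, beside medians of 52.7% and 7 over all windows. These matches describe letters in short windows and say nothing of binding.

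Control 1 stood apart from the other controls for these genes, in values that were already known when the genes were chosen. The mean of the 10 genes, each by its brightest probe set, was 7.01 on control 1, 5.03 on control 2 and 5.05 on control 3. It was 7.96, 7.23 and 6.87 on deficient 1, 2 and 3. Control 1 thus lay among the deficient arrays, and the group differences of the 10 genes are given with and without it. Control 2 and control 3 were the lowest arrays for 10 of 10 genes, and deficient 1 was the highest for 10 of 10. The share of all genes with this order was not computed, here or for the gene lists below. In bulk tissue, fewer choroid plexus cells and less RNA per cell cannot be told apart.

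**Figure D1:**
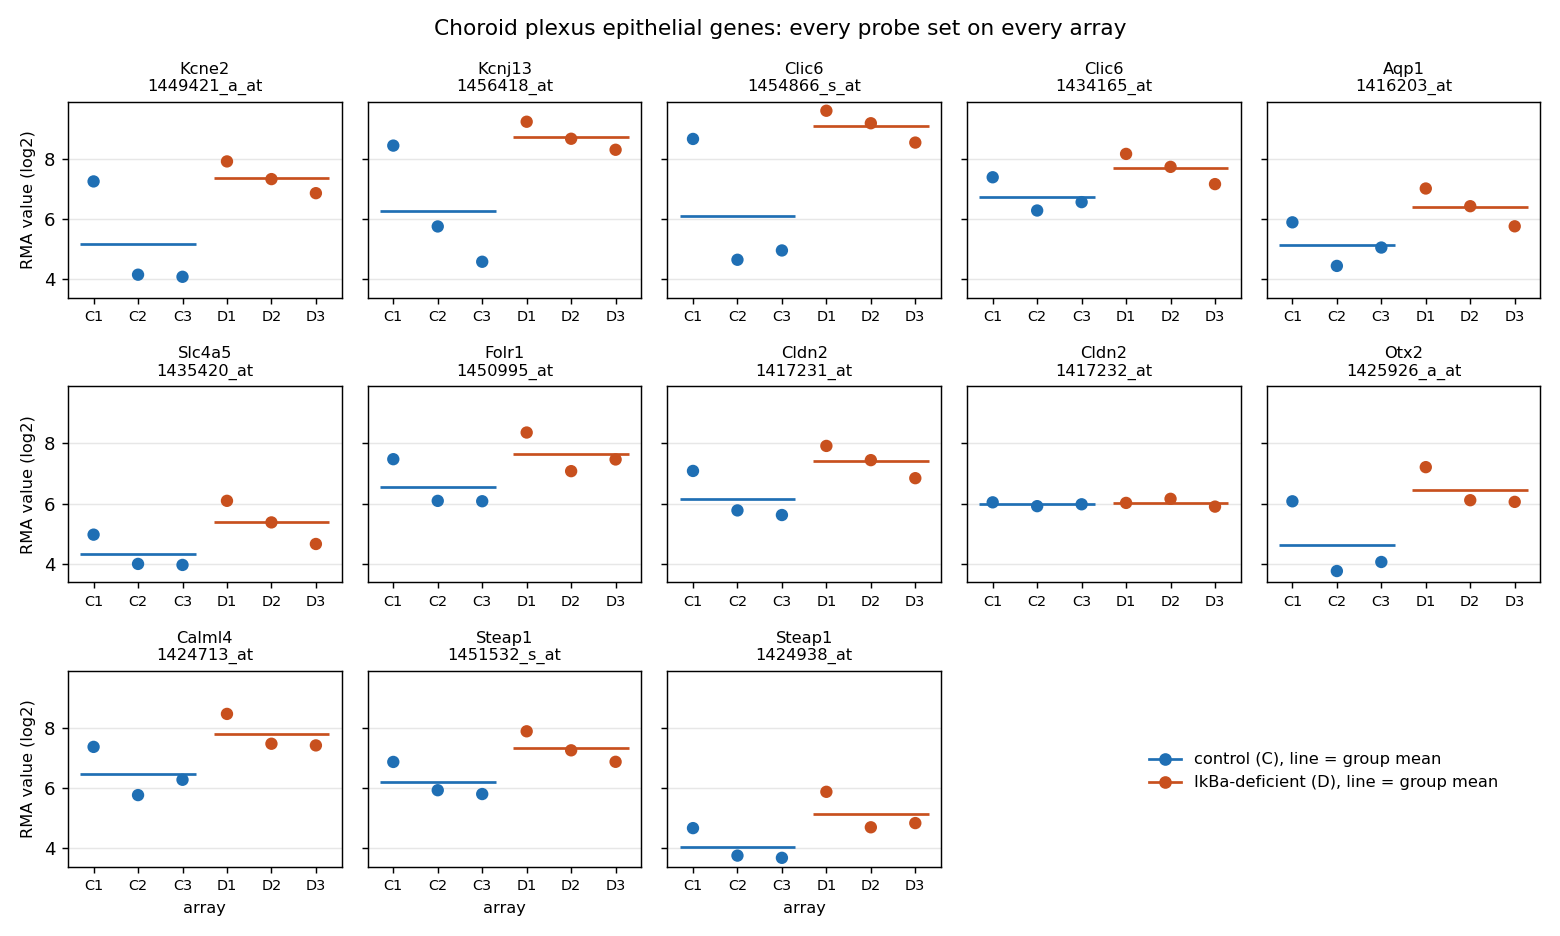
RMA values (log2, vertical axis) of all 13 probe sets of the 10 genes on the 6 arrays (horizontal axis); points are single arrays and lines are group means. In 12 of 13 panels control 2 and control 3 are lowest, while control 1 sits at the height of the deficient arrays, and Cldn2 probe set 1417232_at is flat.

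The potassium channel genes varied widely between animals. Kcne2 encodes a small beta subunit that sets the gating of potassium channels in the apical membrane. Its values were 7.25, 4.16 and 4.09 on control 1, 2 and 3, and 7.91, 7.33 and 6.86 on deficient 1, 2 and 3. Control 2 and control 3 were in the lowest 17.5% and 16.6% of the probe sets on their arrays, while the other 4 values lay above the array median, and the groups overlapped through control 1. The difference was 2.20 ± 0.79 (SE, n = 3 arrays per group) on the log2 scale, or 4.60-fold, and 3.24 without control 1. Within the controls alone, control 1 was 8.53-fold above control 2.

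Kcnj13 encodes Kir7.1, an inwardly rectifying potassium channel of the same apical membrane. Its values were 8.44, 5.76 and 4.59 in controls 1 to 3, and 9.23, 8.66 and 8.30 in deficient 1 to 3. Again the groups overlapped only because control 1 was higher than deficient 3. The difference was 2.47 ± 0.85 (SE, n = 3 per group), or 5.54-fold, and 3.56 without control 1. Kcnj13 was also the gene on which control 2 and control 3 were farthest apart, with control 1 at 6.41-fold the former and 14.4-fold the latter.

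Clic6, a member of the chloride intracellular channel family, had the widest difference of the set and a second probe set that differed from the first in size. Probe set 1454866_s_at was at 8.66, 4.65 and 4.96 in controls 1 to 3 and at 9.59, 9.18 and 8.54 in deficient 1 to 3. Probe set 1434165_at was at 7.39, 6.28 and 6.56 in controls and at 8.16, 7.73 and 7.16 in deficient animals. Both placed control 1 above deficient 3 and the other controls below all deficient arrays. The first differed by 3.01 ± 0.96 (SE, n = 3 per group), or 8.07-fold, and the second by 0.94 ± 0.33, or 1.92-fold. Without control 1 these were 4.30 and 1.26. The suffix of the first marks probes that can match more than 1 transcript, and which of the probe sets reads Clic6 on its true scale is not known from these data.

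Slc4a5, a sodium bicarbonate cotransporter of the apical membrane, was dim. It read 4.97, 3.999 and 3.96 in controls 1 to 3 and 6.09, 5.37 and 4.66 in deficient 1 to 3. Deficient 3 lay below control 1, and control 2 and control 3 were under the lower quartile of their arrays, a range in which RMA compresses differences. The difference was 1.06 ± 0.39 (SE, n = 3 per group), or 2.09-fold, and 1.39 without control 1.

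The water channel Aqp1, through which much of the water of cerebrospinal fluid passes, followed the same order. It was at 5.89, 4.45 and 5.06 in controls 1 to 3 and at 7.01, 6.43 and 5.76 in deficient 1 to 3. The value on control 2 was under the lower quartile of that array. The groups overlapped by control 1 and deficient 3, which were 0.13 apart. The difference was 1.27 ± 0.41 (SE, n = 3 per group), or 2.41-fold, and 1.65 without control 1.

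Cldn2, a pore-forming claudin of leaky epithelia, had 1 probe set that varied between arrays and 1 that was flat. Probe set 1417231_at was at 7.08, 5.77 and 5.62 in controls 1 to 3 and at 7.91, 7.44 and 6.84 in deficient 1 to 3. Probe set 1417232_at stayed between 5.90 and 6.16 on all 6 arrays, near the array median. The former differed by 1.24 ± 0.41 (SE, n = 3 per group) and by 1.70 without control 1. The latter differed by 0.05 ± 0.09 and was the only 1 of the 13 probe sets without the shared order of arrays.

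Folr1, the folate receptor that carries folate into cerebrospinal fluid, was at 7.47, 6.09 and 6.08 in controls 1 to 3 and at 8.35, 7.07 and 7.46 in deficient 1 to 3. Here deficient 2 was the lowest deficient array, and control 1 lay above both deficient 2 and deficient 3. Folr1 was the only gene of the set with control 1 above deficient 2. The difference was 1.08 ± 0.44 (SE, n = 3 per group), or 2.12-fold, and 1.55 without control 1.

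Otx2 was at 6.07, 3.76 and 4.06 in controls 1 to 3 and at 7.21, 6.11 and 6.06 in deficient 1 to 3. On control 2 it was in the lowest 9.2% of probe sets, and control 1 and deficient 3 were 0.02 apart. The difference was 1.82 ± 0.60 (SE, n = 3 per group), or 3.54-fold, and 2.54 without control 1. Of the 10 genes, Otx2 had the profile closest to their mean, with a root-mean-square difference of 0.17 between centred log2 values over the 6 arrays. Clic6, with its wider range, was the farthest at 0.93.

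Calml4, a calmodulin-like protein, and Steap1, a membrane protein of the six-transmembrane reductase family, were the genes whose groups did not overlap. Calml4 was at 7.36, 5.76 and 6.27 in controls 1 to 3 and at 8.46, 7.47 and 7.41 in deficient 1 to 3, which left 0.05 between control 1 and deficient 3. Steap1 probe set 1451532_s_at was at 6.86, 5.93 and 5.80 in controls and at 7.88, 7.25 and 6.87 in deficient animals, which left 0.004. Both gaps are far smaller than the SD of the controls, 0.82 for Calml4 and 0.58 for Steap1. The differences were 1.31 ± 0.43 and 1.14 ± 0.33 (SE, n = 3 per group), and 1.76 and 1.47 without control 1. The dim Steap1 probe set 1424938_at gave a difference of 1.10 ± 0.36, and 1.41 without control 1.

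Every member differed in the same direction, and none passed the test over all probe sets. By limma with Benjamini-Hochberg adjustment over 45037 probe sets, 0 of 13 probe sets were called higher at an adjusted p under 0.05, beside 0% of all probe sets in that direction and 0.00666% in either. All 13 had an adjusted p of 0.9999, and 12 had an unadjusted p under 0.05, beside 2.15% of all probe sets higher at that level. The median difference of the 13 was 1.24, beside -0.0005 over all probe sets. Groups did not overlap for 2 of 10 genes, beside 5.94% of all genes higher in this sense, and for 3 of 13 probe sets, beside 4.76%. After renewed quantile normalization the former count was 1, beside 5.49% of all genes. Since the values were known at the choice of genes, nothing is read from these shares.

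Without control 1, all 10 genes were higher on every deficient array than on the remaining controls, beside 10.9% of all genes. The median difference of the 13 probe sets rose to 1.65. Only Clic6 probe set 1454866_s_at was then called higher (limma, adjusted p = 0.0219), 1 of 13 beside 0.0133% of all probe sets, and Kcne2 had an adjusted p of 0.0657. The 2 remaining controls were a median of 0.23 apart over the 10 genes, from 0.01 for Folr1 to 1.17 for Kcnj13. Control 1 was singled out by its high values for these same genes. The counts, differences and call without it follow partly from that choice and support nothing by themselves. Without deficient 3, the groups did not overlap for 9 of 10 genes, beside 14.4% of all genes.

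**Figure D2:**
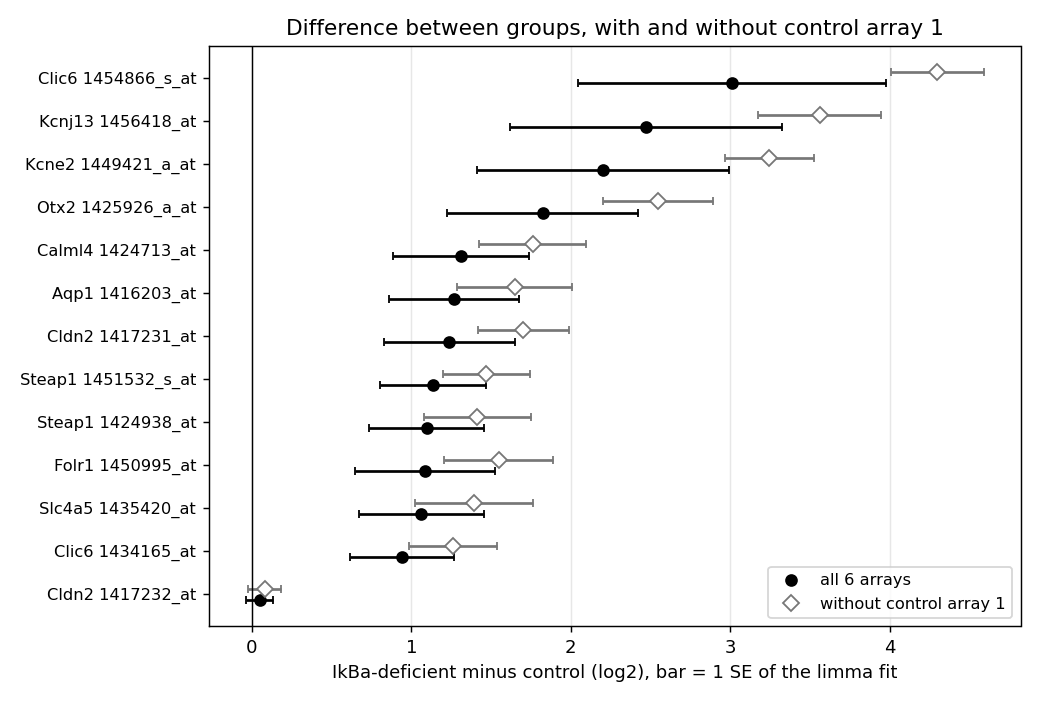
Difference between IκBα-deficient and control arrays (log2, horizontal axis) for each of the 13 probe sets (vertical axis), with bars of 1 SE from the limma fit; filled points use all 6 arrays and open diamonds leave out control 1. Differences run from 0.05 for Cldn2 probe set 1417232_at to 3.01 for Clic6 probe set 1454866_s_at, and all 13 are larger without control 1.

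The spread inside the control group was as wide as the difference between genotypes. For 8 of 10 genes the range among the 3 controls exceeded the difference between group means, and for 9 of 10 it exceeded the range among the deficient arrays. Control 1 lay above the mean of the other controls by 0.99 to 3.85, with a median of 1.39 over the 10 genes, which is close to the median difference between genotypes of 1.29. Control 1 and deficient 3 differed by a median of 0.13, and control 1 was the higher one for 8 of 10 genes. The SD among controls of Kcne2 exceeded that of 99.98% of all probe sets, and the median SD of the 13 was 0.80 beside 0.09 over all probe sets. By the brightest probe set, 34 of 18193 genes had a range of at least 2 over the 6 arrays, the 10 genes among them. That limit was set after the values were seen and lies just under the lowest range of the 10, 2.08 for Steap1. That all 10 passed it was therefore fixed in advance, and nothing is read from it. The other probe sets of Clic6 and Cldn2 had ranges of 1.88 and 0.26.

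Deficient animals differed among themselves too. Deficient 1 exceeded deficient 3 by 1.05 for Kcne2, 0.93 for Kcnj13, 1.43 for Slc4a5 and 1.15 for Otx2. Deficient 2 came the second highest for 9 of 10 genes. On that array the 3′ control probe sets of actin and Gapdh exceeded the 5′ ones by 2.02, a measure of RNA integrity, beside 0.56 to 0.73 on the other 5. The median difference of the 13 probe sets was 1.30 with that gap as a covariate and 1.32 without deficient 2. Since the gap was wide on deficient 2 alone, these fits are nearly the same check.

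Secreted and receptor genes of the same epithelium traced the same order of arrays. Of a list of 6 such genes 4 were measured, and all 4 had deficient 1 highest and control 2 and control 3 lowest. Their mean was 9.54, 7.37 and 7.28 in controls 1 to 3 and 10.25, 9.80 and 9.50 in deficient 1 to 3. Ttr, the thyroid hormone carrier transthyretin, was at 14.49, 10.93 and 10.23 in controls and at 14.77, 14.69 and 14.51 in deficient animals, at the upper end of the scale. Kl, the co-receptor klotho, differed by 0.88 ± 0.30 (SE, n = 3 per group), and by 1.23 without control 1. None of the 4 was called. With the mean of these 4 genes as a covariate, the median difference of the 13 probe sets fell from 1.24 to 0.01, with values from -0.31 for Kcne2 to 0.20 for Aqp1. The covariate has nearly the profile of the 10 genes themselves, so this fall could be foreseen and nothing is read from it.

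Among all other genes, those most like the set were ranked by the root-mean-square difference from the mean centred profile of the 10 genes over the 6 arrays. A flat profile would have a value of 1.11, and the median gene was at 1.11. Sostdc1, a secreted inhibitor of BMP and Wnt signals, was the closest at 0.12, followed by F5, coagulation factor V, at 0.16, Ecrg4 at 0.31, Sulf1, an extracellular sulfatase, at 0.33 and Col8a1, a short-chain collagen, at 0.43. Prr32, Col8a2, Kl, Fap, Slc2a12, Serpinb1b and Cldn1 completed the 12, at 0.43 to 0.61. Of these 12, 3 were on the list of secreted and receptor genes and 1, Cldn1, on that of tight junctions. The measure favours genes with a like range, so genes with the same order and a smaller range rank lower.

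**Figure D3:**
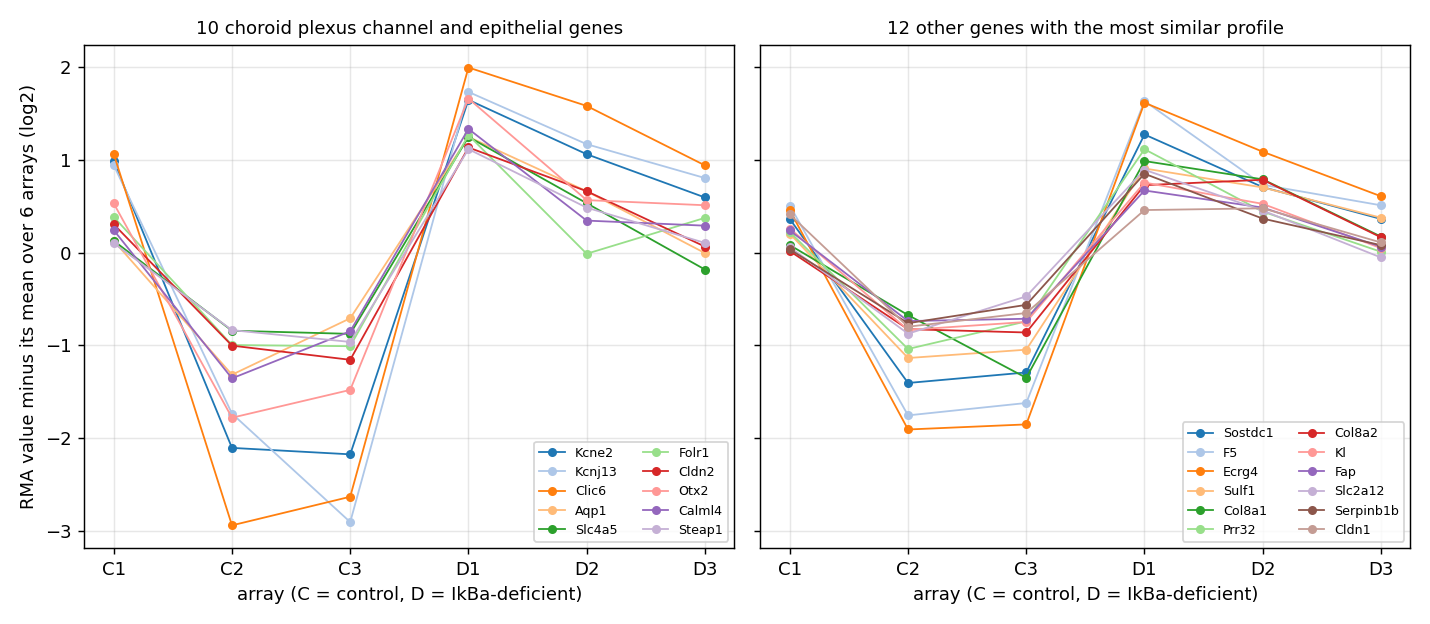
RMA values minus each gene's mean over the 6 arrays (log2, vertical axis) by array (horizontal axis) for the 10 genes (left, brightest probe set) and the 12 other genes with the most similar profile (right); each line joins the values of 1 gene and arrays of a group have no order. In both panels control 2 and control 3 are low and control 1 lies near deficient 3, and the range is widest for Clic6.

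Transport genes that the epithelium shares with neurons, glia or other cells had smaller differences. Of 19 listed genes of ion and fluid transport 16 were measured, with 11 higher, 5 lower and 0 called in either direction. Their median difference was 0.03, beside 1.29 for the 10 genes and 0.006 over all genes. Slc12a2, the sodium, potassium and chloride cotransporter NKCC1, was at 11.61, 11.30 and 11.52 in controls 1 to 3 and at 11.82, 11.83 and 11.60 in deficient 1 to 3. Slc4a2, an anion exchanger, differed by 0.27 ± 0.15 (SE, n = 3 per group), the carbonic anhydrase Car14 by 0.23 ± 0.13 and the cation channel Trpv4 by 0.25 ± 0.10. Of the 16, 3 had deficient 1 highest with control 2 and control 3 lowest. Without the share over all genes, this count cannot be called low or high.

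Family members of the 10 genes were split in direction. Of 34 listed paralogs 31 were measured, with 15 higher, 16 lower and 0 called, and a median difference of -0.02. Of the 31, 1 had deficient 1 highest with control 2 and control 3 lowest. Aqp4, the water channel of astrocytes, differed by 0.45 ± 0.08 (SE, n = 3 per group) with no overlap between groups, but control 1, at 11.37, was its lowest control, unlike for Aqp1. Steap2, the neighbour of Steap1 on chromosome 5, differed by 0.40 ± 0.18, with control 1 at 7.83 above deficient 3 at 7.62. Of 8 tight junction genes 7 were measured, 6 higher and 1 lower with 0 called. Among them Cldn1 read 6.64, 5.43 and 5.58 in controls 1 to 3 and 6.69, 6.71 and 6.34 in deficient 1 to 3, while Cldn11, a claudin of myelin, differed by 0.11 ± 0.11.

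Genes next to the 10 genes on the chromosome had narrower ranges, a comparison added after the values were seen. Kcne2 and Clic6 lie on chromosome 16 with 5 protein-coding genes between them in RefSeq (GRCm38.p6). Rcan1, 1 of these 5, differed by 0.03, Kcne1 by 0.08 and Smim11 by -0.10. Kcnj13 overlaps Gigyf2, which was between 9.33 and 9.47 on all arrays. Over the 20 measured genes that flank the 10 genes or lie between Kcne2 and Clic6, the median range over the 6 arrays was 0.27, with Steap2 the widest at 0.88, beside a median of 2.63 for the 10 genes themselves.

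Markers of other tissue near the hippocampus were measured on the same arrays, and their part in the result was not tested. Ependymal and motile cilia genes were higher in 11 of 12 with a median of 0.20, and 4 of the 12 had deficient 1 highest with control 2 and control 3 lowest. Meningeal genes were higher in 12 of 12 with a median of 0.41, but in another order of arrays, with list means of 6.97, 7.05 and 6.52 in controls 1 to 3 and 7.02, 7.80 and 6.97 in deficient 1 to 3. The median was 0.47 without control 1. Among them Slc13a4, a sodium sulfate cotransporter, was at 7.82, 7.69 and 7.09 in controls and at 8.33, 9.11 and 8.12 in deficient animals, with no overlap between groups. Endothelial genes had a median of 0.13, and Plvap, of the fenestrated vessels found in the choroid plexus, was at 8.15, 7.97 and 8.25 in controls and at 8.15, 8.33 and 8.29 in deficient animals. Thalamic and habenular genes were higher in 8 of 9 with a median of 0.13, striatal in 5 of 6 with 0.07 and neocortical in 5 of 7 with 0.13. The widest difference of the thalamic list was that of Zic1, a zinc finger transcription factor, 1.20 ± 0.31 (SE, n = 3 per group). Zic1 was at 8.70, 8.65 and 8.46 in controls 1 to 3 and at 10.49, 9.83 and 9.09 in deficient 1 to 3, so that control 1 stood near the other controls and the groups did not overlap. Of 6 listed genes of red blood cells 3 were measured, at list means of 4.803 to 5.004 on all arrays. These means lay below every array median (at least 6.08), so they say little of the blood content. None of these genes was called.

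Hippocampal neuron genes were read on the same arrays, and 11 of 12 were measured. Their list mean was 9.05, 9.16 and 9.24 in controls 1 to 3 and 8.995, 8.90 and 9.08 in deficient 1 to 3, above the upper quartile of every array (at most 8.51). The ion transport and tight junction lists also had means above that quartile on every array. This level therefore does not check the tissue label. Of the 11 genes 10 were lower in deficient animals, with a median of -0.14 and 0 called. Nfkbia, the gene of IκBα, by its brightest probe set was at 10.39, 10.35 and 10.31 in controls and at 9.06, 9.13 and 8.66 in deficient animals. Control 1 thus had the Nfkbia level of the other controls. That Nfkbia probe set differed by -1.40 ± 0.12 (SE, n = 3 per group) and was not called (limma, adjusted p = 0.063).

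**Figure D4:**
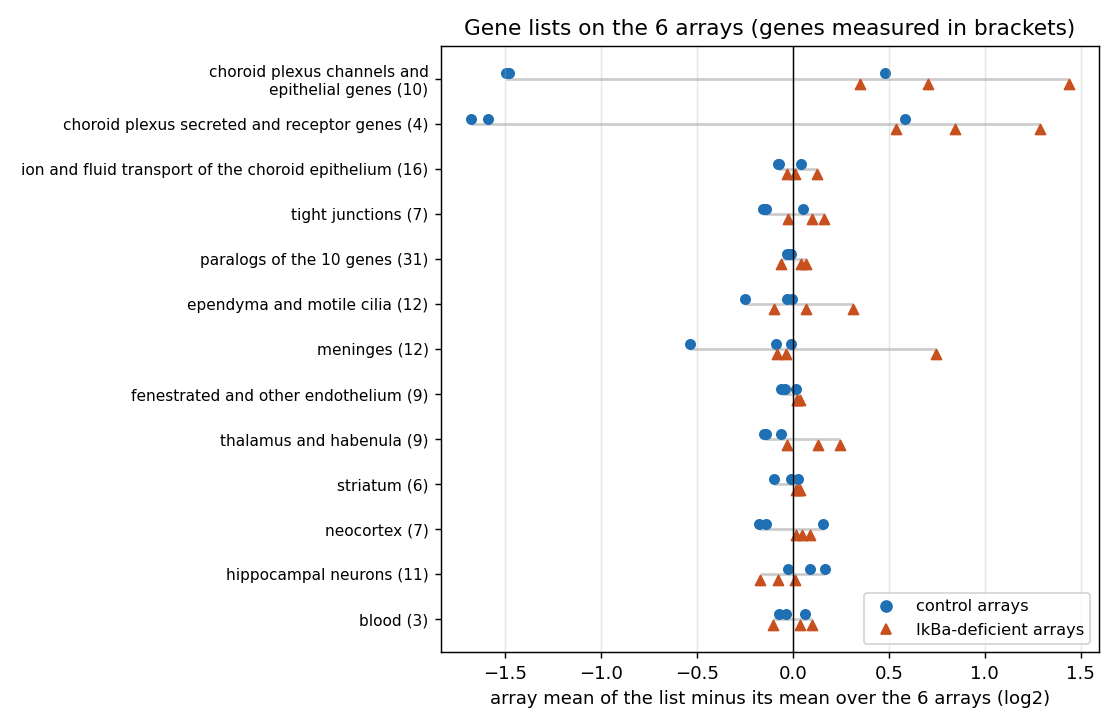
Array means of each gene list minus the mean of that list over the 6 arrays (log2, horizontal axis), with the number of measured genes in brackets (vertical axis); circles are control arrays and triangles IκBα-deficient arrays. Only the 2 choroid plexus epithelial lists show 2 controls more than 1 unit below the mean and the third control among the deficient arrays. The ion transport, tight junction and striatal lists place the controls in the same way, over a far narrower range.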

How the data were processed

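Total RNA of 6 hippocampi was measured on arrays of 45101 probe sets. The authors deposited log2 values that, per the submitters' processing notes, come from RMA. The sources used here name neither its version nor a build. Array medians lay between 6.08 and 6.13. Leaving out 64 control probe sets, 45037 were tested for genotype alone by lmFit and eBayes of limma 3.58.1 under R 4.3.3, as two-sided tests with a threshold of 0.05 after Benjamini-Hochberg adjustment. The platform's annotation in GEO, possibly outdated, gave 34945 probe sets 1 symbol, 932 several and 9160 none. For genes, the brightest probe set by mean over the 6 arrays was used. A listed gene counts as measured only if a probe set carried exactly that symbol alone. A gene not measured in this sense may still be on the array, with several symbols or under another name.

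The 10 genes and the 12 other lists were chosen with earlier results of these data known. Named are all probe sets of the 10 genes, Nfkbia, genes among the 4 with the smallest p in each list, and the 12 genes most like the set. Further genes (neighbours on the chromosome) were chosen after values were seen.

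The series' design text speaks of 3 pairs of deficient animals and littermates, but no label ties the repeat numbers to these pairs, so the main fit has no pairing. The fit was tested on 10 simulated datasets of 45037 probe sets. In these, 80.7% of 200 probe sets changed by 1 (log2) were recovered and 3.82% of calls were false. The median SD among controls was 0.09 over all probe sets, but 0.80 over the probe sets of the 10 genes. The recovered share was not computed for probe sets of so wide a spread. It therefore does not tell how often a change in the 10 genes would be called. Promoter windows are RefSeq's. Figures were drawn with matplotlib 3.10.9.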

Additional observations from a re-analysis of the deposited data

How the results depend on the processing

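The median difference of the 13 probe sets stayed positive under all alternatives run, but in 1 of them, given below, it was only 0.012. Leaving out each array gave 0.96 to 1.65. It was 1.24 on renewed quantile normalization or median centring, 1.30 with the 3′ to 5′ gap as a covariate and 1.10 with array weights. With the mean of the secreted choroid plexus genes as a covariate it moved to 0.012, with values from -0.31 for Kcne2 to 0.20 for Aqp1. That covariate shares the order of arrays of the 10 genes, so the move could be foreseen. The count of probe sets called over all probe sets was 0 at thresholds of 0.05 and 0.10 and under every other alternative, except that leave-one-out fits gave 0 to 1, the call coming without control 1. The count of genes with groups apart, 2 of 10, was 2 to 10 when each array was left out, 10 without control 1 and 9 without deficient 3. It was 1 on renewed quantile normalization, where deficient 3 of Steap1 (6.84) fell below control 1 (6.86). With the repeat number as a replicate block, 0 of 13 were called, the lowest adjusted p was 0.125 (limma), and the median difference was 1.24 as before. Same-numbered arrays deviated from their group means with correlations of -0.004, 0.27 and 0.03, which does not establish that the numbers mark the pairs of the design. Each deficient array was above the same-numbered control for 10 of 10 genes, a count whose share over all genes was not computed. It follows from deficient 1 being highest and control 2 and control 3 lowest for all 10, and adds nothing to that order. Values of Slc4a5, Otx2, Kcne2 and Steap1 probe set 1424938_at on control 2 and control 3 were under the lower quartile of the array. Aqp1 was under it on control 2. The folds of these probe sets may therefore be understated.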
